A study of Mus musculus with 20 samples.

Results

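Sites bound by both KLF4 and JMJD3 were examined in mouse embryonic fibroblasts (MEFs) on the way to pluripotency. KLF4 is a zinc-finger transcription factor that recognises GC-rich and CACCC-type DNA, and it is used with OCT4, SOX2 and c-MYC (OSKM) to turn fibroblasts into induced pluripotent stem cells. JMJD3, encoded by Kdm6b, is a histone demethylase whose substrate is H3K27me3, trimethylated lysine 27 of histone H3. This mark is laid down by Polycomb complexes over genes that are kept silent. During this conversion fibroblast genes are shut down early, epithelial genes come on next, and the pluripotency network follows.

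A shared site was a JMJD3 position within 400 bp of the midpoint of a KLF4 peak, both mapped by chromatin immunoprecipitation and sequencing (ChIP-seq) at day 5. Of 14067 JMJD3 positions, 4594 (32.7%) met this rule. The sites were thus chosen by the distance between the 2 proteins, so that distance and the KLF4 peak width are descriptions only. The remaining 9473 JMJD3 positions, and the 9715 of 14391 KLF4 peaks that had no JMJD3 position within 400 bp, served for comparison.

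Both lists came from wild-type (WT) cells of strain C57BL/6J-OG2 that received OSKM, labelled as lentiviral although the protocol describes retrovirus, in medium with vitamin C. The JMJD3 list was made with an antibody to the FLAG tag in cells given FLAG-JMJD3, and the KLF4 list in cells given JMJD3. A further KLF4 list came from OSKM cells given the FLAG control instead (FLAG cells), and a further JMJD3 list from FLAG-JMJD3 cells that received less KLF4 virus (OSlowKM). H3K27me3 was mapped in 10 libraries. Of these, 2 were from MEFs without virus (day 0), WT or Jmjd3-/- (KO, strain C57Bl6J), and 8 were from OSKM cells, WT or KO, with FLAG or JMJD3, at day 5 or day 10. The KO cells thus also differed from the WT cells in strain label, and the binding lists come from WT cells alone.

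Every group had 1 library, so no difference has a replicate check and no p-value was computed. The intervals given are 95% intervals (Wilson for shares, Newcombe for differences), which cover counting error only, and neighbouring sites are not independent. The lists hold no read counts, so their depth is unknown, and they hold no expression, so the labelled cell types were not checked against markers. The cells are mixed populations, in which fewer cells with a protein or mark and less of it per cell cannot be told apart.

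The DNA under the sites shows how they differ among themselves. The sequences below were read from GRCm38.p6, plus strand, as 120 bases around the JMJD3 position, with capitals marking matches to a KLF string (GGGNGTG) or a SOX string (ACAANGG) on either strand. The first 3 are epithelial genes with a KLF match, at Grhl2 (a transcription factor of epithelia, intron, chr15:37317839-37317958), Pkp1 (a desmosome protein, intron, chr1:135892093-135892212) and Itgb4 (an integrin of hemidesmosomes, coding exon, chr11:116004986-116005105). The next 2 carry a SOX match, upstream of Pou5f1 (which encodes OCT4, chr17:35504025-35504144) and in an intron of Tdh (threonine dehydrogenase, an enzyme of mouse embryonic stem cells, chr14:63500419-63500538). The last lies just upstream of a transcription start site (TSS) and holds neither string, at Stat3 (the effector of LIF signalling, chr11:100939633-100939752).
Grhl2: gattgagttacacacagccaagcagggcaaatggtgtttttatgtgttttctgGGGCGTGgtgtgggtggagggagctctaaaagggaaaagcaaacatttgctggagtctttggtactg
Pkp1: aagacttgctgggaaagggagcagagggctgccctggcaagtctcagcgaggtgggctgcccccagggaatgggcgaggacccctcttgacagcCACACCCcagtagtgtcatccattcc
Itgb4: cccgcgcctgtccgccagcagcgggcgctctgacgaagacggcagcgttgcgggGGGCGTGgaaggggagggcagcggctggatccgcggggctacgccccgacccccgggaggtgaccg
Pou5f1: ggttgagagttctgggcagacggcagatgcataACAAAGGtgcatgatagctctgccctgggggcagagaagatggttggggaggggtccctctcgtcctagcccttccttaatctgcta
Tdh: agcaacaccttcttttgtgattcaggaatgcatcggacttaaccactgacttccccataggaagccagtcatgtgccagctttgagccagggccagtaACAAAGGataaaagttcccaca
Stat3: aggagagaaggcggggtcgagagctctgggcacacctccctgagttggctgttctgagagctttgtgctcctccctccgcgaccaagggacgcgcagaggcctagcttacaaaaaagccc

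The JMJD3 position lay 10 bp from the KLF4 midpoint at Grhl2, 16 bp away at Pkp1, 22 bp at Stat3, 41 bp at Itgb4, 45 bp at Pou5f1 and 101 bp at Tdh. Over all shared sites the median distance was 77 bp. It was 134 bp for the sites within 1 kb of a TSS and between 51 and 57 bp in the 3 classes farther away. Of the 4594 sites, 3525 (76.7%) lay inside the KLF4 interval itself. The rule cut through a thin tail, with 157 positions at 351 to 400 bp from a KLF4 midpoint and 144 at 401 to 450 bp.

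Shared sites fell into 2 large groups by distance to a TSS. Within 1 kb of a TSS there were 2231 (48.6%, interval 47.1 to 50.0), a further 463 lay 1 to 5 kb away, 1460 lay 5 to 50 kb away and 440 lay beyond 50 kb. In all, 58.6% (57.2 to 60.1) were within 5 kb of a TSS, against 34.1% of the other JMJD3 positions, a difference of 24.6 points (22.9 to 26.3), and 66.2% of the KLF4 peaks without JMJD3, a difference of -7.55 points (-9.26 to -5.85). Sequence within 5 kb of a TSS makes up 18% of the chromosomes. The shared sites thus lay closer to TSSs than the rest of JMJD3 and farther from them than the rest of KLF4. Within 100 bp of a TSS lay 12.2% of shared sites, 3.21% of other JMJD3 positions and 28.5% of KLF4 peaks without JMJD3. Shared sites were measured at the JMJD3 position and KLF4 peaks at the midpoint, and so close to the start this matters. Among the 2231 shared sites within 1 kb of a TSS, 24.9% of JMJD3 positions and 39.4% of KLF4 midpoints were within 100 bp, against 51.3% of the KLF4 midpoints without JMJD3 in the same range. By annotation, 30.4% of shared sites (29.1 to 31.8) were between genes, against 41.7% of other JMJD3 positions (40.7 to 42.7) and 40.9% of KLF4 peaks without JMJD3 (39.9 to 41.8). Of the shared sites 44.1% were in introns, 13.2% in 5′ untranslated regions and 8.27% in coding exons. Chromosome X held 29 of them (0.631%, 0.440 to 0.905), against 2.00% of other JMJD3 positions (1.73 to 2.30) and 1.68% of KLF4 peaks without JMJD3 (1.44 to 1.95).

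At promoters the 2 proteins were offset along the gene. Among the 2231 sites within 1 kb of a TSS, the JMJD3 position had its median 139 bp downstream of the TSS, and 73.0% of positions (71.1 to 74.8) were downstream. The KLF4 midpoints of the same sites had their median at 15 bp, and 53.6% (51.5 to 55.7) were downstream. JMJD3 was further downstream than KLF4 in 1458 of the 2231 sites (65.4%, 63.4 to 67.3). Promoters with no TSS of the other strand within 1 kb, a restriction chosen after seeing the data, gave 65.9% (63.6 to 68.1). The JMJD3 positions without KLF4 lay still further in, with their median at 213 bp, and the KLF4 midpoints without JMJD3 lay at -15 bp. The deposited JMJD3 entries are single bases and the KLF4 entries are intervals, so the places compared are a called point and a midpoint. Whether the single bases are summits or midpoints of JMJD3 peaks is not given in the sources used here, and the offset depends on it.

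**Figure D1:**
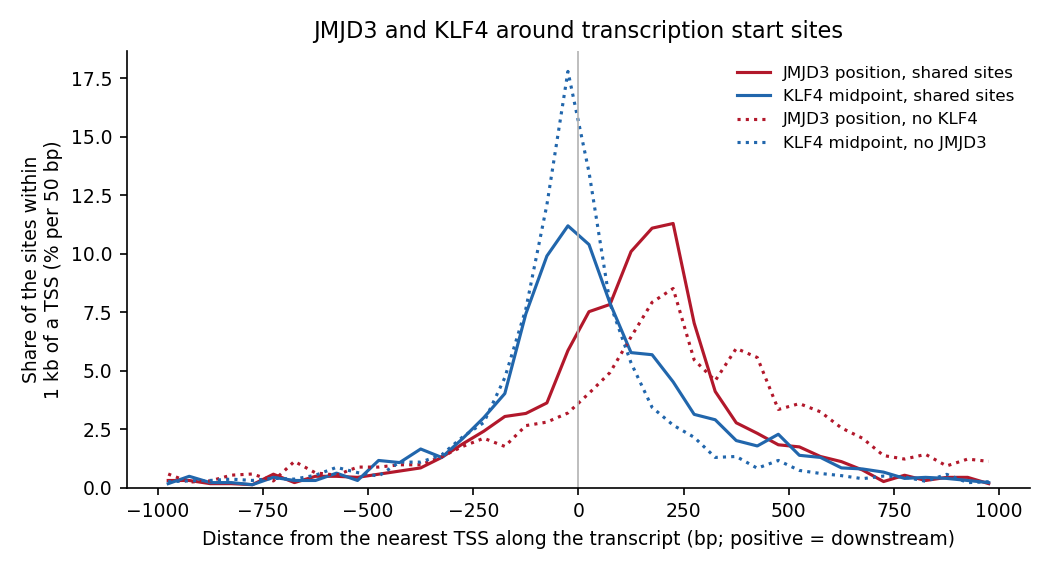
Share of sites (percent per 50 bp bin, y axis) by distance from the nearest TSS along the transcript (bp, x axis), for sites within 1 kb of a TSS. Solid lines are the JMJD3 positions and KLF4 midpoints of the 2231 shared promoter sites and dotted lines the 2030 JMJD3 positions and 5373 KLF4 midpoints without the other protein. The shared JMJD3 positions are most frequent 200 to 250 bp downstream (11.3%), and the shared KLF4 midpoints in the 50 bp before the TSS (11.2%).

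The sequence content of the sites separated promoters from distal sites. Fixed letter strings, read on either strand, were searched in 200 bp around the JMJD3 position (the KLF4 midpoint for KLF4 peaks without JMJD3). Windows 2 kb to either side and windows on the TSSs of protein-coding transcripts were the background. The KLF string occurred in 1768 shared sites (38.5%, 37.1 to 39.9), against 12.0% of the windows 2 kb away and 20.9% of the TSS windows. Other JMJD3 positions had it in 19.6% and KLF4 peaks without JMJD3 in 48.5%. Within 1 kb of a TSS, 28.0% of shared sites and 25.6% of other JMJD3 positions held it, a difference of 2.35 points whose interval includes 0 (-0.311 to 5.01). At 5 to 50 kb the shares were 49.6% and 17.7%, a difference of 31.9 points (29.1 to 34.7). KLF4 peaks without JMJD3 held it more often still, in 59.2%, so that shared sites differed from them by -9.60 points (-12.7 to -6.45). The windows of the 2 sets have different centres, and this matters. Over all distances, windows on the KLF4 midpoint held the string in 45.1% of shared sites (43.7 to 46.6), nearer to the 48.5%. The KLF string was thus more frequent at shared sites than at other JMJD3 positions in the 3 classes beyond 1 kb, and the interval included 0 at promoters. Promoter sites were also richer in GC, at 68.9% ± 8.29 (SD over 2231 windows), against 46.5% ± 8.61 over the 1460 windows at 5 to 50 kb. Their GC content was not taken into account in these shares.

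Strings of the other reprogramming factors sat mainly at the distal shared sites. The SOX string was in 17.3% of shared sites (16.3 to 18.5), with 7.66% within 1 kb of a TSS and 25.8% at 5 to 50 kb, against 9.21% in the windows 2 kb away and 7.60% in TSS windows. In the 5 to 50 kb class the other JMJD3 positions had the same string in 25.9%, a difference of -0.181 points (-2.73 to 2.46), whereas KLF4 peaks without JMJD3 had it in 13.7%, a difference of 12.0 points (9.46 to 14.6). Over 50 kb the string was in 30.5% of shared sites and 25.3% of other JMJD3 positions, a difference of 5.19 points (0.619 to 10.0). The OCT string (ATGCNAAT), the octamer read by OCT4, was in 3.59% of shared sites, 2.60% of windows 2 kb away and 1.40% of TSS windows. At 5 to 50 kb it was in 6.37% of shared sites, 10.1% of other JMJD3 positions and 2.69% of KLF4 peaks without JMJD3, so the shared sites were between the other sets. The AP-1 string (TGANTCA), bound by the FOS and JUN family that is active in fibroblasts, was in 14.4% of shared sites at 5 to 50 kb, 15.3% of other JMJD3 positions and 7.61% of KLF4 peaks without JMJD3. In all 8.47% of shared sites held it, against 6.45% of windows 2 kb away and 4.00% of TSS windows. None of the 4 strings was found in 46.6% of shared sites, and in 65.1% of those within 1 kb of a TSS.

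**Figure D2:**
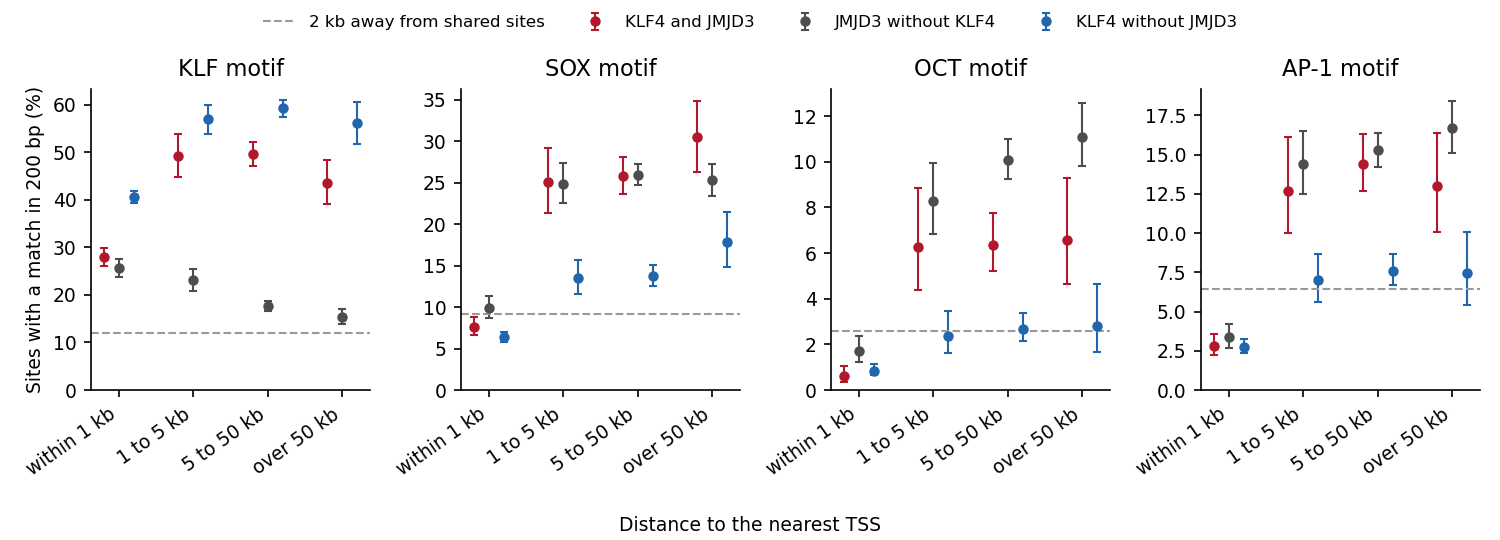
Share of sites (percent, y axis, with 95% Wilson intervals) with a KLF, SOX, OCT or AP-1 string in 200 bp, by distance to the nearest TSS (x axis), for shared sites, JMJD3 positions without KLF4 and KLF4 peaks without JMJD3. Beyond 1 kb the shared sites lie between the other JMJD3 positions and the KLF4 peaks for the KLF string (17.7%, 49.6% and 59.2% at 5 to 50 kb, JMJD3 alone first) and near the other JMJD3 positions for the SOX string at 5 to 50 kb (25.8% and 25.9%), while over 50 kb they are above them (30.5% and 25.3%). Windows lie on the JMJD3 position, and on the KLF4 midpoint for KLF4 peaks without JMJD3, so the centres differ. The dashed line is the share in windows 2 kb from the shared sites.

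Beyond 1 kb from a TSS the strings also differed in where they sat relative to the 2 proteins. Of 2363 distal shared sites, 25.8% (24.0 to 27.6) had a KLF string within 25 bp of the KLF4 midpoint and 17.4% (15.9 to 18.9) within 25 bp of the JMJD3 position. For the SOX string the order was the other way round, with 7.36% (6.38 to 8.49) at the KLF4 midpoint and 9.39% (8.28 to 10.6) at the JMJD3 position, and these intervals overlap. Both centres belong to the same sites, so the shares are paired and are given as a description.

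Most shared sites were gone from the JMJD3 list made with low KLF4. That list has 2284 positions, and a shared site counted as kept if one of them lay within 400 bp. Of the 4594 shared sites 572 (12.5%, 11.5 to 13.4) were kept, beside 12.9% of all 14067 JMJD3 positions. The JMJD3 positions without KLF4 were kept in 13.1% (12.4 to 13.8), so the difference was -0.660 points and its interval includes 0 (-1.82 to 0.529). With a distance of 200 bp between positions the difference was -1.33 points (-2.43 to -0.185). The share kept lay between 11.6% and 14.1% in the 4 classes of TSS distance and between 11.3% and 13.4% in the quartiles of KLF4 peak width. At 400 bp, JMJD3 positions with and without a KLF4 peak were thus not detectably different in the share kept. Counted from the low KLF4 list, 27.5% of its positions (25.7 to 29.4) lay within 400 bp of a KLF4 midpoint of JMJD3 cells. Of the JMJD3 positions with OSKM 32.7% did (31.9 to 33.4). Since the low KLF4 list is 1 library and is much shorter, its length and the amount of KLF4 cannot be told apart.

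Kept and lost shared sites differed in their strings. The KLF string was in 31.8% of the 572 kept sites (28.1 to 35.7) and 39.4% of the 4022 lost sites (37.9 to 41.0), a difference of -7.61 points (-11.6 to -3.41). Split by TSS distance, this difference was -18.6 points (-25.8 to -10.7) at 5 to 50 kb, -15.9 points (-28.3 to -1.74) at 1 to 5 kb, -7.61 points (-19.7 to 5.78) over 50 kb and 1.49 points (-3.87 to 7.33) within 1 kb. The JMJD3 positions without KLF4 showed a difference of -7.18 points (-9.17 to -5.00) in the same string. The OCT string was in 5.94% of kept and 3.26% of lost shared sites, a difference of 2.69 points (0.924 to 4.99) beside 1.68 points (0.0315 to 3.54) at JMJD3 positions without KLF4, and the SOX string in 18.4% and 17.2%, a difference of 1.15 points (-2.04 to 4.72). The AP-1 string was in 10.5% and 8.18%, a difference of 2.31 points (-0.112 to 5.20) beside 6.77 points (4.57 to 9.14) at JMJD3 positions without KLF4. Kept sites had thus fewer KLF strings between 1 and 50 kb from a TSS and more OCT strings. The JMJD3 positions without KLF4 differed in the same direction in both strings over all distances, and were not split by TSS distance.

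KLF4 was also called at most shared sites without exogenous JMJD3. A KLF4 midpoint of FLAG cells lay within 400 bp of 3184 shared sites (69.3%, 68.0 to 70.6), beside 62.6% of all KLF4 peaks of JMJD3 cells. Counted by peaks, 70.0% of the 4676 KLF4 peaks with a JMJD3 position and 59.0% of the 9715 without had a FLAG peak, a difference of 10.9 points (9.29 to 12.6). Peak width moved with this share: in the narrowest quartile 38.4% and 29.4% had a FLAG peak, and in the widest 90.7% and 88.0%. The mean of the differences within quartiles of width was 5.97 points. Shared sites with a KLF string were in the FLAG list in 76.0% (74.0 to 78.0) and those without in 65.1% (63.3 to 66.8). Being kept with low KLF4 did not move with it, since 69.9% of kept and 69.2% of lost sites were in the FLAG list, a difference of 0.711 points (-3.42 to 4.60). Lost with low KLF4 but present in FLAG cells was the most frequent combination, with 2784 sites (60.6%), and 400 sites (8.71%) were in all 4 lists.

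**Figure D3:**
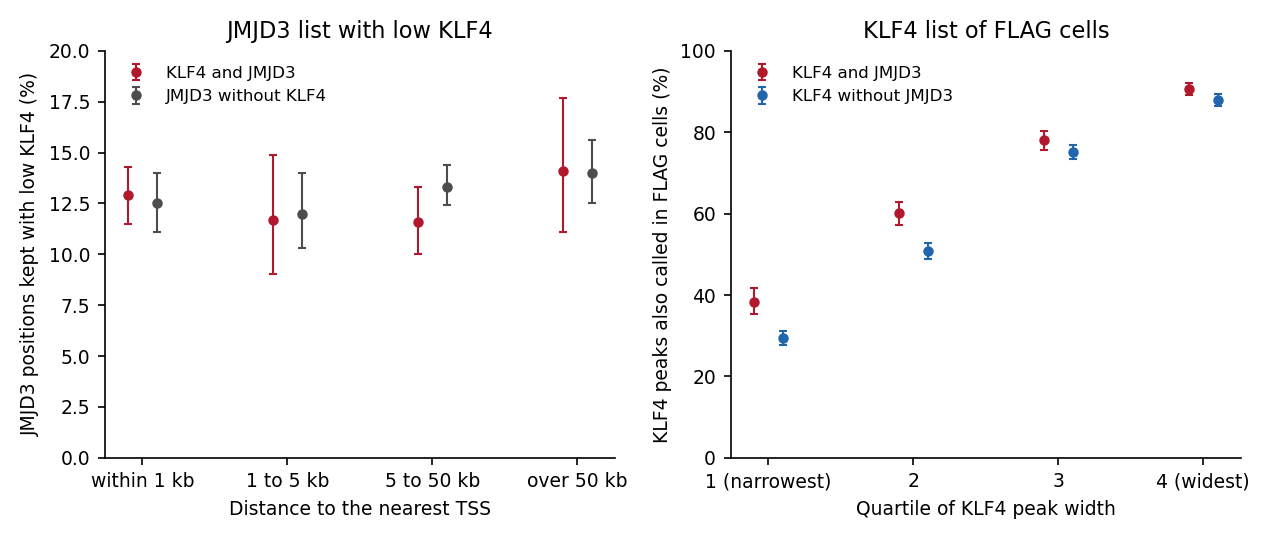
Left, share of JMJD3 positions kept with low KLF4 (percent) by distance to the nearest TSS, for shared sites and JMJD3 positions without KLF4. Right, share of KLF4 peaks of JMJD3 cells with a FLAG KLF4 midpoint within 400 bp (percent) by quartile of KLF4 peak width, for peaks with and without a JMJD3 position. Points are shares and bars 95% Wilson intervals. The shares on the left lie between 11.6% and 14.1%, and those on the right rise from 29.4% to 90.7% with width.

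H3K27me3 peaks, which are intervals of 1000 bp in these lists, were rare around shared sites. In WT MEFs 245 of the 4594 sites (5.33%, 4.72 to 6.02) lay within 5 kb of a peak, beside 4.34% of all JMJD3 positions, and in KO MEFs 152 (3.31%), beside 2.70%. The KO list was shorter, with 4113 peaks against 6954 in WT MEFs. When each was cut by its score to its 3045 highest peaks, both lists gave 124 shared sites (2.70%). Of the KLF4 peaks without JMJD3, 10.7% in WT and 7.14% in KO MEFs were near the mark, so shared sites differed from them by -5.33 points (-6.21 to -4.42) and -3.83 points (-4.55 to -3.09). Other JMJD3 positions had 3.85% and 2.41%. In WT MEFs the mark was within 5 kb of 6.63% of the shared sites at promoters, 9.50% of those 1 to 5 kb from a TSS, 3.15% at 5 to 50 kb and 1.59% beyond.

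At day 5 WT cells with FLAG had a peak within 5 kb of 177 shared sites (3.85%, 3.33 to 4.45), beside 3.40% of all JMJD3 positions. With JMJD3 there were 90 (1.96%, 1.60 to 2.40), beside 1.72%. In day 5 KO cells the counts were 150 with FLAG (3.27%, beside 3.01%) and 105 with JMJD3 (2.29%, beside 2.15%). In day 10 WT cells they were 131 with FLAG (2.85%, beside 2.32%) and 84 with JMJD3 (1.83%, beside 1.38%). In day 10 KO cells they were 125 with FLAG (2.72%, beside 2.33%) and 106 with JMJD3 (2.31%, beside 2.08%). The share was thus lower with JMJD3 than with FLAG in all 4 pairs. Against the other JMJD3 positions alone, shared sites were more often near the mark in 6 of the 10 lists with an interval above 0. These differences were 1.48 points in WT MEFs (0.744 to 2.26), 0.902 in KO MEFs (0.321 to 1.53), 0.675 in day 5 WT FLAG cells (0.0364 to 1.36), 0.783 in day 10 WT FLAG cells (0.243 to 1.37), 0.667 in day 10 WT JMJD3 cells (0.246 to 1.14) and 0.578 in day 10 KO FLAG cells (0.0450 to 1.16). In the other 4 lists they were 0.206 to 0.383 points and their intervals included 0. Within 1 kb of a TSS the shares turned the other way in WT MEFs, at 6.63% of shared sites and 7.68% of other JMJD3 positions, a difference of -1.05 points (-2.62 to 0.497), and likewise in day 5 WT cells with FLAG (4.62% and 5.42%, a difference of -0.802 points, -2.14 to 0.510) and with JMJD3 (2.24% and 2.81%, a difference of -0.567 points, -1.54 to 0.379). KLF4 peaks without JMJD3 had 9.73% with FLAG and 6.28% with JMJD3 in day 5 WT cells.

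The lists differ in length, from 3045 to 6954 peaks. The list with JMJD3 was shorter than that with FLAG in 3 of the 4 pairs, as in day 5 WT cells (5064 and 6428), and longer in day 5 KO cells (6539 and 5643). The part of list length in the shares was not tested otherwise than by the cut that follows. When each list was cut by its score to its 3045 highest peaks, day 5 WT shared sites had 1.87% with FLAG and 1.22% with JMJD3, and day 5 KO sites 1.92% and 1.35%. At day 10 the cut lists gave 1.72% and 1.83% in WT, where the direction turned, and 1.72% and 1.70% in KO.

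**Figure D4:**
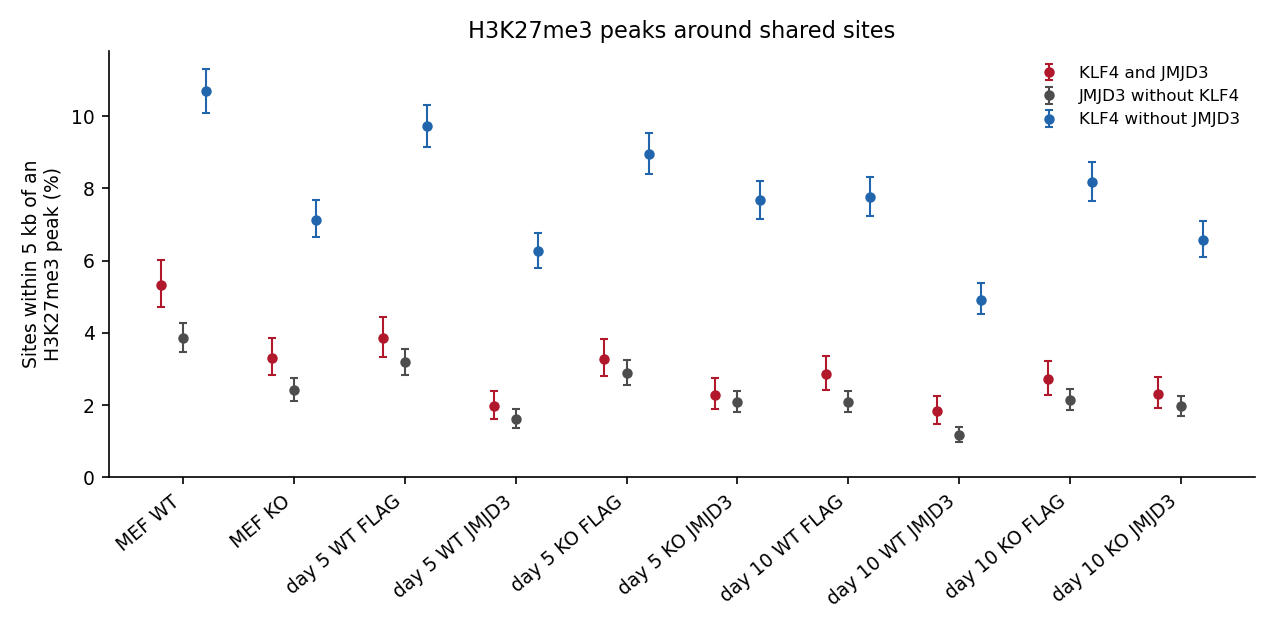
Share of sites within 5 kb of an H3K27me3 peak (percent, y axis, with 95% Wilson intervals) in each of the 10 lists (x axis), for shared sites, JMJD3 positions without KLF4 and KLF4 peaks without JMJD3. Shared sites lie between 1.83% and 5.33%, below the KLF4 peaks without JMJD3 in each list. The lists differ in length.

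Most shared sites had no called H3K27me3 peak nearby in any list. The mark may still lie there below the threshold of a list. No peak of any of the 10 lists was within 5 kb of 4203 sites (91.5%, 90.6 to 92.3), against 83.3% of KLF4 peaks without JMJD3 (82.5 to 84.0) and 92.9% of other JMJD3 positions (92.4 to 93.4). At the other end, 34 sites (0.740%) had a peak within 5 kb in all 10 lists, against 0.401% of other JMJD3 positions and 2.27% of KLF4 peaks without JMJD3. Of the 245 sites marked in WT MEFs, 122 (49.8%, 43.6 to 56.0) still had a peak at day 5 with FLAG and 69 (28.2%, 22.9 to 34.1) with JMJD3. By day 10 these were 78 (31.8%) with FLAG and 59 (24.1%) with JMJD3. Shared sites not marked in WT MEFs that had a peak later numbered 55 at day 5 with FLAG and 21 with JMJD3. At day 10 they numbered 53 and 25. Of the 152 shared sites marked in KO MEFs, 59.9% (51.9 to 67.3) still had a peak at day 5 with FLAG. With JMJD3 48.7% did (40.9 to 56.6). Other JMJD3 positions marked in WT MEFs gave similar shares at day 5, 54.5% (49.4 to 59.6) with FLAG and 31.5% (27 to 36.4) with JMJD3. Among the KLF4 peaks without JMJD3 that were marked in WT MEFs, 70.3% (67.4 to 73.0) still had a peak at day 5 with FLAG and 49.6% (46.6 to 52.7) with JMJD3. Few sites lay inside a peak, since 22 fell in a peak of day 5 WT FLAG cells (0.479%, against 0.222% of other JMJD3 positions and 2.32% of KLF4 peaks without JMJD3) and 7 in a peak of day 5 WT JMJD3 cells (0.152%, against 0.106% and 0.937%).

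Seen from the mark, FLAG peaks near a shared site were lost with JMJD3 more often than others at day 5. A FLAG peak counted as lost when no peak of the JMJD3 list overlapped it. In day 5 WT cells 120 of the 189 FLAG peaks within 5 kb of a shared site were lost (63.5%, 56.4 to 70.0), beside 46.4% of all FLAG peaks. The rest were lost in 45.8%, a difference of 17.7 points (10.5 to 24.3). The mean of the differences within quartiles of the FLAG score was 16.1 points, and among peaks within 5 kb of a TSS, a restriction added after seeing the data, the difference was 23.2 points (15.1 to 30.8). The difference was not computed with lists of equal length. Peaks near a JMJD3 position without KLF4 were lost in 61.5% (55.9 to 66.9), and peaks near KLF4 without JMJD3 in 47.3% (43.9 to 50.6). In day 5 KO cells 79 of 159 were lost (49.7%, 42.0 to 57.4), beside 33.8% of all, and the difference from the rest was 16.4 points (8.58 to 24.1). Near a JMJD3 position without KLF4 the share lost in KO cells was 51.4% (45.3 to 57.4), close to that near shared sites.

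At day 10 the differences from the rest had intervals that included 0. In WT cells 72 of 138 FLAG peaks near a shared site were lost (52.2%, 43.9 to 60.3), beside 59.6% of all, a difference from the rest of -7.63 points (-16.0 to 0.646). Against FLAG peaks near none of the KLF4 and JMJD3 sites, of which 60.6% were lost, the difference was -8.41 points (-16.8 to -0.109). Near JMJD3 without KLF4 64.3% were lost (57.1 to 70.9). In KO cells 60 of 132 were lost (45.5%, 37.2 to 54.0), beside 44.4%, a difference of 1.08 points (-7.28 to 9.69). The binding lists are from day 5, and binding at day 10 was not analysed here. The median score of the FLAG peaks near a shared site and of the rest was 12.9 and 13.2 in day 5 WT cells and 10.5 and 10.5 in day 10 WT cells. In KO cells it was 13.1 and 12.5 at day 5 and 11.4 and 10.6 at day 10.

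**Figure D5:**
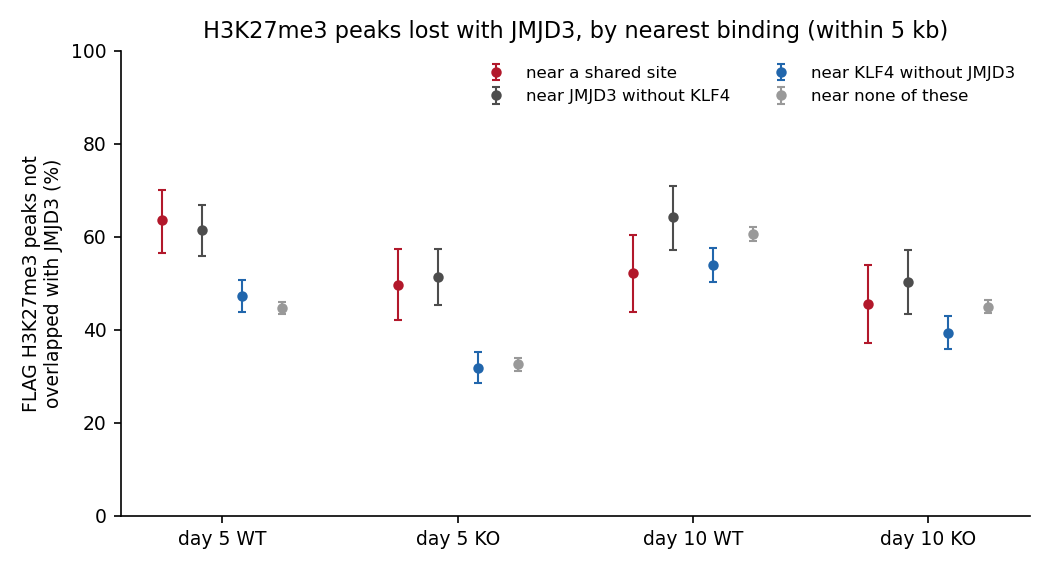
Share of FLAG H3K27me3 peaks with no overlapping peak in the JMJD3 list (percent, y axis, with 95% Wilson intervals) for the 4 pairs of lists (x axis), by what lay within 5 kb of the peak. Peaks near a shared site and near JMJD3 without KLF4 are above the others at day 5 (63.5% and 61.5% in WT cells, against 47.3% near KLF4 alone), and at day 10 the shares near a shared site are 52.2% (WT) and 45.5% (KO).

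The sites were spread over many genes. A total of 3631 protein-coding genes (16.6% of 21938) had the TSS nearest to a shared site, and 2934 of these had 1 site only. Within 50 kb of the gene, 15 of 30 pluripotency genes and 23 of 35 epithelial genes had a shared site, 50.0% and 65.7%, beside 33.3% of all protein-coding genes. Other JMJD3 positions lay within 50 kb of 14 and 19 of these genes, and KLF4 peaks without JMJD3 of 19 and 30. The share of all protein-coding genes near either of these larger sets was not computed, so these counts have no background. Within 10 kb there were 10 of each, 33.3% and 28.6%, beside 18.5% of all protein-coding genes. The 10 pluripotency genes include Sox2 and Klf4, whose sites lay on exons that the viruses also carried. Higher 10 kb shares than for pluripotency and epithelial genes were found for enzymes of H3K27 (50.0%, 7 of 14, with Kdm6b, also on the viruses), mesenchymal genes (40%, 12 of 30) and the KLF and SP family (34.6%, 9 of 26). The share was lower than for both in senescence genes (20.0%), though above the 18.5% of all protein-coding genes. It was below that 18.5% in WNT pathway (17.1%), looping and elongation (14.3%) and neural development genes (13.3%). Several of these genes were named by the study from these same libraries, so their counts are no independent evidence. The other lists with a site within 50 kb were mesenchymal genes (15 of 30), enzymes of H3K27 (7 of 14), WNT pathway genes (14 of 35), the KLF and SP family (10 of 26), senescence genes (5 of 15), neural development genes (7 of 30) and factors of chromatin looping and transcript elongation (3 of 14).

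Pluripotency genes with a site within 10 kb were Pou5f1, Sox2, Klf4, Klf2, Fbxo15, Fgf4, Stat3, Tdh, Sall4 and Mir290a. The sites on Sox2 (239 bp downstream of the TSS) and Klf4 (1791 bp downstream) were on coding exons, had KLF4 peaks of 1032 and 917 bp and were the only ones of these 11 sites kept with low KLF4 (18.2%, beside 12.5% of all shared sites). Both genes were on the viruses, as were Pou5f1, Myc and Kdm6b, so reads of the vector and of the exon cannot be told apart there. The same holds for the site on a coding exon of Kdm6b, 7709 bp from its TSS, which had H3K27me3 within 5 kb in 3 of the 4 lists with JMJD3 and in no other. Pou5f1 had sites 1933 and 5093 bp upstream, outside its exons, both in the FLAG KLF4 list and neither kept with low KLF4. Both were within 5 kb of an H3K27me3 peak in WT MEFs and in day 10 WT cells with JMJD3, and the nearer one also in day 5 KO cells with FLAG.

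The sites of the other pluripotency genes were either near an H3K27me3 peak or not, which does not show whether the gene itself was marked. Of the 30 pluripotency genes, 17 had a peak within 5 kb of a TSS in day 5 WT cells with FLAG. Fgf4, a growth factor gene whose downstream enhancer is known from embryonic stem cells, had a site 3107 bp from its TSS in the 3′ untranslated region, with a KLF and an OCT string, in the FLAG KLF4 list and near H3K27me3 in all 10 lists. Klf2, a relative of Klf4, had a site 176 bp upstream of its TSS with a KLF string and H3K27me3 within 5 kb in both day 5 WT lists and all 4 day 10 lists. Fbxo15 (245 bp upstream, with a SOX string), Stat3 (153 bp upstream), Tdh (8613 bp downstream, with SOX and AP-1 strings), Mir290a (6377 bp upstream, with a KLF string) and Sall4 (6735 bp from the gene, in an intron of Atp9a) had no peak within 5 kb of the site in any list. Of the 11 sites 8 were in the FLAG KLF4 list (72.7%, beside 69.3% of all shared sites), Stat3, Tdh and Sall4 being the exceptions. In day 5 WT cells 4 of the 11 were within 5 kb of a peak with FLAG and 4 with JMJD3. That is 36.4% in each, beside 3.85% and 1.96% of all shared sites. The Klf4 site was near the mark in all 10 lists.

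Epithelial genes with a site within 10 kb included Krt8 (a keratin), Perp, Pkp1 and Jup (desmosome proteins), Tjp1 (a tight junction protein), Itgb4, Grhl2, and Esrp1 and Esrp2 (splicing factors of epithelia). Of the 12 sites within 10 kb of the 10 genes 11 were in the FLAG KLF4 list, and 0 were kept with low KLF4, which allows a share of up to 25%. Krt8 (954 bp downstream of the TSS) and Perp (259 bp downstream) had H3K27me3 within 5 kb in both MEF lists and in no list of OSKM cells. The site near Esrp1, at a promoter of its neighbour Dpy19l4, had it in WT MEFs alone. Within 50 kb of the 23 epithelial genes there were 40 sites, of which 9 were kept with low KLF4 (22.5%, 12.3 to 37.5), 32 were in the FLAG KLF4 list (80.0%, 65.2 to 89.5) and 22 held a KLF string (55.0%, 39.8 to 69.3). Over all shared sites these shares were 12.5%, 69.3% and 38.5%. None of the 40 was within 5 kb of a peak in day 5 WT cells with FLAG, which allows up to 7.50%. This concerns the sites and not the genes, since 18 of the 35 epithelial genes had such a peak within 5 kb of a TSS.

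Fibroblast genes carried sites too. Those with a site within 5 kb of a TSS were Runx1 (238 bp upstream), Vim (261 bp upstream and 652 bp downstream), Tgfbr2 (266 bp downstream), Tead1 (483 bp), S100a4 (867 bp), Cdh2 (2448 bp) and Snai1 (2651 bp). The sites at Runx1, Vim (both), Tead1 and S100a4 were kept with low KLF4. Over the 15 sites within 10 kb of mesenchymal genes these 5 were the ones kept (33.3%, 15.2 to 58.3), beside 12.5% of all shared sites. Vim encodes vimentin, the intermediate filament of fibroblasts, and both of its sites held a KLF string and were in the FLAG KLF4 list. Snai1, a repressor of epithelial genes, had a site at the very midpoint of a KLF4 peak, near H3K27me3 in day 5 WT and day 10 KO cells with FLAG but not in the JMJD3 lists of these pairs. The Runx1 site was near the mark in day 10 WT JMJD3 cells alone, and the Cdh2 site in both day 10 KO lists and in day 10 WT FLAG cells.

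Among chromatin and signalling genes, Suz12 (70 bp from the TSS), Ezh1 (194 bp), Ezh2 (599 bp) and Jarid2 (2519 bp), all encoding parts or partners of the complex that writes H3K27me3, had a site within 5 kb of a TSS. None of the 10 sites within 10 kb of genes of this list was kept with low KLF4, which allows up to 30.0%, beside 12.5% of all shared sites, and 4 were in the FLAG KLF4 list (40%, 16.8 to 68.7), beside 69.3%. The KLF and SP family had sites at Klf3 (19 bp), Klf11 (127 bp), Klf2, Klf13 (305 bp), Klf10 (551 bp), Sp3 (1222 bp) and Klf4. Of the 14 sites within 10 kb of this family 13 were in the FLAG KLF4 list (92.9%, 68.5 to 98.7), beside 69.3% of all shared sites, and 5 were kept with low KLF4 (35.7%, 16.3 to 61.2), beside 12.5%. The site on the Klf4 exon is among those kept. In the WNT pathway sites lay at Tcf7l1 (63 bp), Ctnnb1 (65 bp), Axin2 (251 bp), Fzd5 (361 bp) and Lgr4 (4194 bp). Axin2 was near H3K27me3 in all 10 lists and the others in none.

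The cell cycle genes Cdkn1a (106 bp), Cdk4 (169 bp) and Rb1 (355 bp) had sites, all in the FLAG KLF4 list, and so had Cdk9 (206 bp), whose site was not. Cdk4 was within 5 kb of H3K27me3 in both MEF lists and both day 5 FLAG lists, and in none of the 4 JMJD3 lists. Neural development genes are classical Polycomb targets. Their sites at Gsx1 (38 bp) were near the mark in all 10 lists, the site at Sox21 (51 bp) in 5, and the site at Dlx2 (3655 bp) in 3 lists of day 10. En2 had a more distant site, 37876 bp from the gene, near the mark in all 10 lists.

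The 5 protein-coding genes with most sites within 50 kb were Gm20388 (18 sites over an annotated span of 4434882 bp that covers many other genes), Zfhx3 (12), Ahnak (9), Fgfr2 (8, over an annotated span of 2960900 bp) and Nfix (7). Zfhx3, a large zinc-finger and homeobox factor gene on chromosome 8 (107942644 to 108961630, GRCm38), held all 12 sites within the gene. None of the 12 was kept with low KLF4, which allows up to 25%, 7 were in the FLAG KLF4 list, 8 held a KLF string and 5 a SOX string. Over all shared sites these shares were 12.5%, 69.3%, 38.5% and 17.3%. The annotated spans of these 5 genes ran from 87431 bp (Ahnak) to 4434882 bp (Gm20388), and length was not taken into account.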

How the data were processed

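Peak lists of 14 of the 20 samples were used, and 6 samples (4 inputs and 2 H3K27ac libraries) were not used here. Reads were mapped to mm10 with bowtie2 by the authors, who called peaks in each library with DFilter (H3K27me3) or MACS2 (KLF4, JMJD3). Drosophila S2 cells were added as a spike-in for H3K27me3, and the authors scaled the mouse reads by the mapped Drosophila reads. Whether the peaks were called on the scaled reads is not stated. The deposited H3K27me3 lists give 1000 bp intervals with a caller score on an unstated scale (6.56 to 200.0), used only to rank peaks. The KLF4 lists give intervals, ranked here by width, and the JMJD3 lists give single positions, which could not be ranked. A longer list may reflect more reads.

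The sites were found by distance between positions and midpoints. TSSs and genes came from GENCODE M21 basic transcripts and sequence from GRCm38.p6, the build of mm10, written 1-based. Python 3.11.15, numpy 2.4.6 and pysam 0.24.0 were used, and 2 counts were checked with bedtools 2.31.1. The code was tested on simulated lists. The sites and the 9 gene lists (229 genes) were chosen with earlier results of these data known. Genes were named when a site lay within 10 kb of a pluripotency or epithelial gene, or within 5 kb of a TSS for other lists (at most 8 a list), when a listed gene had a site near H3K27me3 of day 5 WT FLAG cells, or when a gene was among the 5 with most sites. A few genes that met this rule are not reported here.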

Additional observations from a re-analysis of the deposited data

Results flagged for a closer look

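The excess loss of FLAG H3K27me3 peaks near shared sites pointed in opposite directions at the 2 times in WT cells. Peaks within 5 kb of a shared site were lost with JMJD3 more often than the rest by 17.7 points at day 5, and the difference was -7.63 points at day 10, where its interval included 0. Each time has 1 library with FLAG and 1 with JMJD3, so the change between day 5 and day 10 was not tested. Peaks near a JMJD3 position without KLF4 were also lost often at day 5 (61.5% in WT and 51.4% in KO cells, against 63.5% and 49.7% near shared sites), and at day 10 in WT cells 64.3% of them were lost, against 52.2% near shared sites. In KO cells the differences were 16.4 points at day 5 and 1.08 points at day 10, and the interval of the latter included 0.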

How the results depend on the processing

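Of 44 alternatives to 14 results, 18 left the value within 1.5 times (counts) or within the interval of the reported value, 26 moved it, and none changed the sign of the 3 differences among these results. Outside them, equal list length turned the order of FLAG and JMJD3 at day 10 in WT cells (1.72% and 1.83%). No paired test was run over the pairs of FLAG and JMJD3 lists, which differ in day and genotype. Every group has 1 library, so no replicate could be left out. The wider 50% of KLF4 peaks gave 2677 shared sites, of which 66.0% were within 5 kb of a TSS. That share was 51.8% for sites within 200 bp, 51.9% with protein-coding TSSs, 48.6% at 1 kb and 67.2% at 10 kb. With 200 bp, 11.0% were kept with low KLF4. The FLAG KLF4 share was 56.2% at 200 bp, 72.2% at 800 bp and 42.9% with the wider 50% of that list, and the difference between KLF4 peaks was 5.97 points within width quartiles. H3K27me3 with FLAG at day 5 was near 1.46% of sites at 1 kb, 10.3% at 20 kb and 1.87% at equal list length, and with JMJD3 near 0.588%, 5.66% and 1.22%. With lists of equal length 55.3% of the FLAG peaks near a site were lost. The share lost among the rest was not computed at that length, so the excess near shared sites was not tested there. The KLF string was in 21.8% of 100 bp and 54.8% of 400 bp windows, in 45.1% on the KLF4 midpoint and in 24.3% with a longer string (GGGNGTGG), and the SOX string in 10.5%, 26.6% and 16.0%. A site lay within 10 kb of 20 pluripotency and epithelial genes and within 50 kb of 38. The depth of the lists is unknown, and a site absent from a list may lie below its threshold.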
